A study of Thermothelomyces thermophilus with 14 samples.

Results

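The gene cdh (locus MYCTH_111388) encodes cellobiose dehydrogenase of the thermophilic cellulolytic fungus Myceliophthora thermophila. It was chosen by its locus tag and is 1 of the 9110 genes in the deposited count table. The RefSeq gene table of the assembly ASM22609v1 lists the same locus under the symbol cbdA. It was counted in all 14 libraries and passed the filter on low counts, as did 8567 genes in all.

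Cellobiose dehydrogenase is a secreted enzyme with a haem-binding cytochrome domain and a flavin-binding dehydrogenase domain. The dehydrogenase domain oxidises cellobiose, the disaccharide that cellulases release from cellulose, to cellobionolactone. The electrons can pass through the cytochrome domain to lytic polysaccharide monooxygenases (LPMOs), copper enzymes that cleave cellulose chains by oxidation. In fungi that degrade plant cell walls, cellobiose dehydrogenase is therefore usually described beside cellulases and LPMOs. No protein or promoter sequence of cdh was used here.

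All libraries came from mycelium of the wild-type strain ATCC 42464, which was precultured and then held for 4 h on a new carbon source in Vogel's salts. There were 7 groups of 2 libraries each. In flasks of 250 mL holding 100 mL of medium, XA received 1% Avicel, a microcrystalline cellulose, with 1% xylan, and Xylan received 2% xylan. In 24-well plates with 5 mL a well, G2X2 received 2% cellobiose with 2% xylobiose, G2 received 2% cellobiose and X2 received 2% xylobiose. GX received 1% glucose with 1% xylose, the monosaccharides of which cellobiose and xylobiose are built. NoCarbon2, in the same plates, received no carbon source. The wild type was the only strain in these groups, so that differences between groups follow the medium, and between the flask and plate groups also the vessel.

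The libraries held between 17992946 and 25254924 counted reads, of which cdh took a mean share of 0.0316% in G2X2 and 0.00160% in GX. Levels below are CPM (counts of a gene per 1000000 counted reads) with library sizes scaled by the trimmed mean of M-values (TMM). Differences are log2 fold changes ± SE with an adjusted p from edgeR's quasi-likelihood test across 8567 genes, and a gene was called where the adjusted p was below 0.05. Nothing in the labels states that the 2 libraries of a group came from separate cultures, so the p-values measure the spread between these libraries, which may be technical. In RNA from whole mycelium, fewer hyphae that express a gene and less RNA per hypha cannot be told apart. Gene lengths were not used, so levels were compared between media and not between genes.

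cdh had a high level in the 3 media that held cellulose or cellobiose and a low level in the other 4. In G2X2 it had 299 and 351 CPM (6015 and 7082 counts). In XA it had 340 and 248 CPM (8650 and 5326 counts). In G2 it had 358 and 155 CPM (7383 and 3434 counts). All 6 of these libraries lay above 150 CPM.

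In X2 cdh had 13.01 and 50.7 CPM (239 and 750 counts). In Xylan it had 19.2 and 14.8 CPM (329 and 295 counts). GX had 14.5 and 12.3 CPM (333 and 325 counts), and NoCarbon2 had 19.5 and 12.2 CPM (476 and 313 counts). Of these 8 libraries, 7 lay below 20 CPM and the second X2 library stood apart at 50.7 CPM. The low levels were still read from at least 239 counts a library.

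By mean level the order was G2X2 (325.0 ± 36.8 CPM), XA (294 ± 65.4 CPM), G2 (257 ± 144 CPM), X2 (31.8 ± 26.6 CPM), Xylan (17.0 ± 3.14 CPM), NoCarbon2 (15.8 ± 5.17 CPM) and GX (13.4 ± 1.53 CPM; SD, n = 2 each). Every neighbouring pair in this order had overlapping libraries except G2 and X2. The mean of G2 was 8.06 times that of X2. The order among Xylan, NoCarbon2 and GX is not resolved: without the scaling factors Xylan was lowest, GX had 16.0 CPM and NoCarbon2 18.3 CPM.

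**Figure D1:**
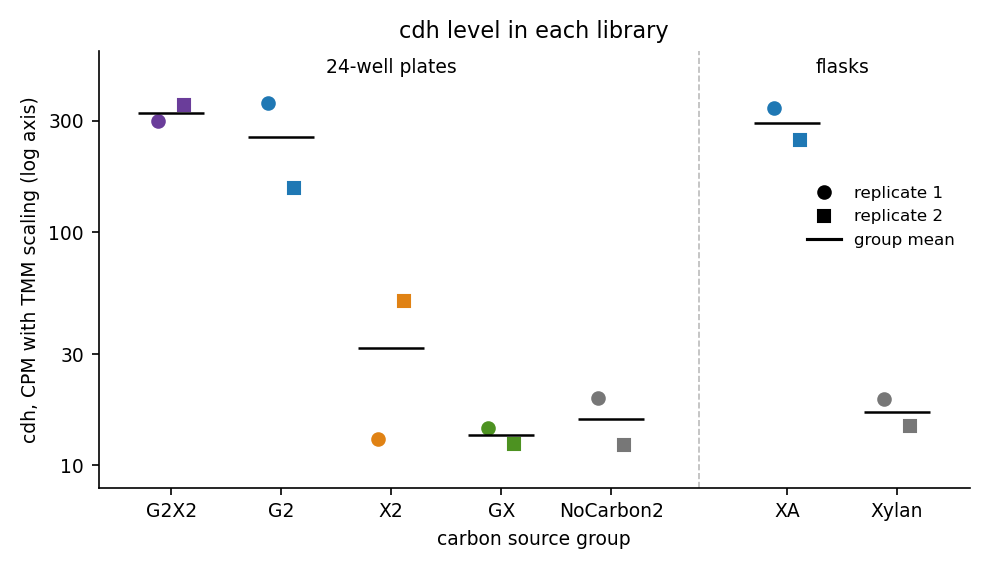
Level of cdh in every library (points, CPM on a log axis) with the mean of each group (horizontal line), for the 7 media, plates left and flasks right. The 6 libraries from G2X2, XA and G2 lie above 150 CPM, and 7 of the other 8 lie below 20 CPM, the exception being X2 replicate 2 at 50.7 CPM.

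Among the plates, which share the vessel and the volume, cdh was higher with cellobiose, and no difference was detectable with the monosaccharides. In G2 the level was 16.2-fold that in NoCarbon2 (log2 fold change 4.02 ± 0.57, adjusted p = 0.000321). Of all genes tested, 12.3% were called higher in this comparison, and 47 had a larger fold change than cdh. In G2X2 the level was 20.5-fold that in NoCarbon2 (log2 fold change 4.36 ± 0.58, adjusted p = 0.000132), where 19.4% of genes were called higher and 39 had a larger fold change. All 4 libraries with cellobiose lay above both NoCarbon2 libraries.

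GX did not pass the test against NoCarbon2 (log2 fold change -0.24 ± 0.52, adjusted p = 0.771), in a comparison that called 24.0% of genes. Its 95% interval runs between -1.38 and 0.90 on the log2 scale, and the libraries of GX and NoCarbon2 overlapped. X2 did not pass either (log2 fold change 1.00 ± 0.52, interval -0.14 to 2.14, adjusted p = 0.148), where 38.6% of genes were called. One X2 library lay between the NoCarbon2 libraries and the other above both. This value turned on the single library: without X2 replicate 1 it was 1.61 (adjusted p = 0.0124), and without X2 replicate 2 it was -0.29 (adjusted p = 0.657).

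**Figure D2:**
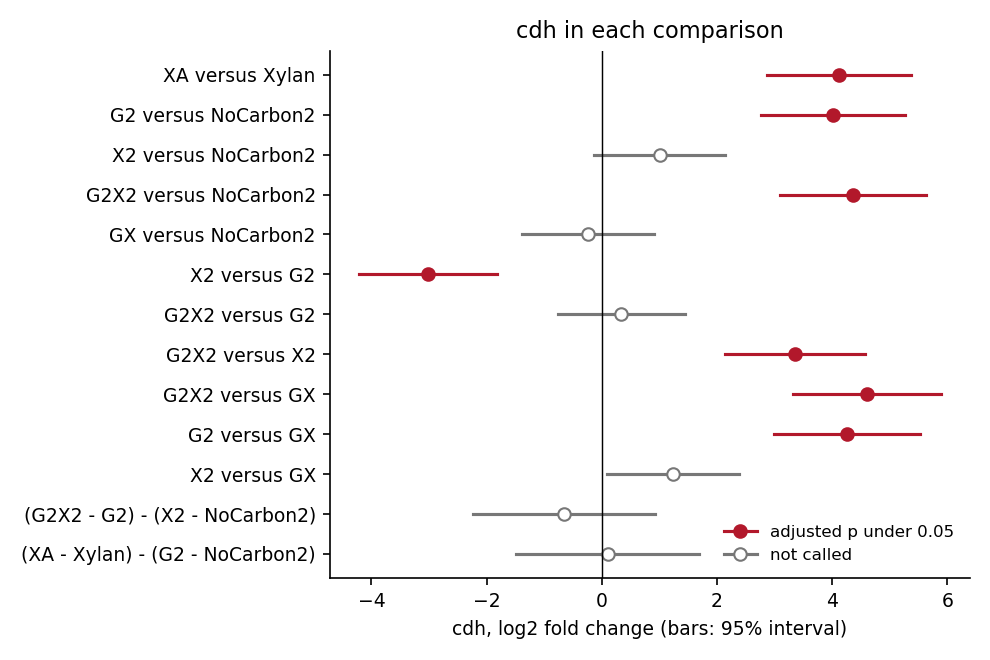
Log2 fold change of cdh (points) with its 95% interval (lines) in each comparison, from the quasi-likelihood fit to all 14 libraries. The 7 called comparisons are each between a medium with cellobiose or Avicel and one with neither, and the 6 that were not called have intervals that reach 0 or pass close by it.

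The disaccharides and the monosaccharides were also set against each other. G2 exceeded GX 19.1-fold (log2 fold change 4.26 ± 0.58, adjusted p = 0.000872), where 4.62% of genes were called higher and 15 had a larger fold change than cdh. G2X2 exceeded GX 24.2-fold (4.60 ± 0.59, adjusted p = 0.000248), where 14.3% of genes were called higher and 15 again had a larger fold change. Of all calls in that comparison, 54.0% were higher with TMM scaling and 39.7% with upper-quartile scaling. The total sugar was equal in G2 and GX, since GX held 1% of each monosaccharide and G2 held 2% cellobiose. It was higher in G2X2, which held 2% of each disaccharide. X2 against GX gave 1.24 ± 0.53 (interval 0.09 to 2.39) with an adjusted p of 0.0815, where 38.3% of genes were called. DESeq2 called that difference (log2 fold change 1.24, adjusted p = 0.0295), and it was also called without X2 replicate 1 (1.87, adjusted p = 0.00591) and was -0.06 without X2 replicate 2.

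Cellobiose and xylobiose, a glucose dimer and a xylose dimer at the same concentration, gave different levels of cdh. X2 was lower than G2, with a log2 fold change of -3.01 ± 0.55 (interval -4.21 to -1.82, adjusted p = 0.00158). In this comparison 18.3% of genes were called lower, and 74 had a more negative value than cdh. Both X2 libraries lay below both G2 libraries. The mixture G2X2 exceeded X2 10.2-fold (3.36 ± 0.56, adjusted p = 0.00132), where 14.6% of genes were called higher.

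Adding xylobiose to cellobiose did not change cdh detectably. G2X2 against G2 gave 0.34 ± 0.50 (interval -0.76 to 1.44, adjusted p = 0.695), where 15.3% of genes were called. Of those calls 53.9% were higher with TMM scaling and 42.2% with upper-quartile scaling. Both G2X2 libraries lay between the G2 libraries. On the linear scale, the mean of G2 plus that of X2 minus that of NoCarbon2 came to 272.5 CPM, against 325.0 CPM measured in G2X2, a ratio of 1.19. The interaction of both sugars, the effect of xylobiose with cellobiose minus its effect without, was -0.66 ± 0.72 (interval -2.24 to 0.92, adjusted p = 0.562), where 18.1% of genes were called. Its sign rested on single libraries: it was 0.07 without G2 replicate 1 and 0.63 without X2 replicate 2.

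In the flasks, cdh rose on the medium with Avicel. XA exceeded Xylan 17.3-fold (log2 fold change 4.12 ± 0.58, interval 2.86 to 5.37, adjusted p = 0.000382), and both XA libraries lay above both Xylan libraries. In this comparison 14.8% of genes were called higher, and 13 of the 8567 genes had a larger fold change than cdh. The xylan content differed between these media too, at 1% in XA and 2% in Xylan.

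The rise with Avicel in flasks and the rise with cellobiose in plates were close in size. The first minus the second was 0.10 ± 0.73 (interval -1.48 to 1.68, adjusted p = 0.937), where 33.9% of genes were called. The interval covers a difference of more than 1 log2 unit in either direction, so this does not show that the 2 rises were equal. No Avicel culture was held in a plate and no cellobiose culture in a flask, so that the carbon source and the vessel cannot be told apart in this difference.

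Beside cdh, 5 lists of loci were followed, 22 loci in all, each of which passed the filter. The lists covered LPMOs, cellulases, the uptake and hydrolysis of disaccharides, regulators and xylanases. The names and roles of these loci follow published locus assignments as recalled and were not derived from the deposited table. The RefSeq gene table used here neither gives nor contradicts them, and the least certain is cdt-1. Calls over a list are given beside the share of all genes called in the same direction. The lists were chosen with earlier results of these data known, so that choice may have shaped these counts. The shares are a background and not a test of the lists.

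LPMOs are the enzymes to which cellobiose dehydrogenase can pass electrons. In G2 against NoCarbon2, 5 of the 6 LPMO loci were called higher, against 12.3% of all genes, with a median log2 fold change of 2.27 against 0.01 over all genes. Without G2 replicate 1 or NoCarbon2 replicate 2, 3 of the 6 were called. In XA against Xylan 3 of the 6 were called higher, against 14.8% of all genes, with a median of 2.09. The log2 fold change of cdh exceeded that of all 6 LPMO loci in XA against Xylan and that of 5 in G2 against NoCarbon2.

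LPMO9J (MYCTH_112089) was the locus whose rise in G2 was above that of cdh. It had 369 and 139 CPM in G2, against 3.11 and 1.13 CPM in NoCarbon2 (log2 fold change 6.91 ± 0.72, adjusted p = 4.15e-05). In XA it had 221 and 164 CPM, against 31.3 and 35.5 CPM in Xylan (2.53 ± 0.58, adjusted p = 0.0066). Both Xylan libraries lay above both NoCarbon2 libraries, and its rise with Avicel was smaller than its rise with cellobiose by 4.38 ± 0.84 on the log2 scale (adjusted p = 0.00224). The libraries of cdh overlapped there, with 19.2 and 14.8 CPM in Xylan and 19.5 and 12.2 CPM in NoCarbon2.

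In X2 against NoCarbon2 3 of the 6 LPMO loci were called higher, against 19.1% of all genes, although 1 of the 6 was called without X2 replicate 2 or without NoCarbon2 replicate 2. The called locus with the largest value was LPMO9B (MYCTH_80312), at 4.12 ± 0.53 (adjusted p = 0.000134), above its value of 1.75 ± 0.49 in G2 against NoCarbon2 (adjusted p = 0.0205, not called when G2 replicate 1 or any NoCarbon2 library was left out). cdh had 1.00 and 4.02 in these comparisons. In GX against NoCarbon2 0 of the 6 LPMO loci were called higher and 1 lower (LPMO9H, MYCTH_46583, a call lost without NoCarbon2 replicate 1 or either GX library), where 10.9% of all genes were called higher and 13.1% lower. In G2X2 against NoCarbon2 5 of the 6 were called higher with a median of 3.51, against 19.4% of all genes.

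Cellobiohydrolases release cellobiose from chain ends and endoglucanases cut within the chain. All 5 loci of this list were called higher in G2 against NoCarbon2 (median 4.28), in G2X2 against NoCarbon2 (median 3.60) and in XA against Xylan (median 3.98), beside the shares of 12.3%, 19.4% and 14.8% of all genes. The call of cbh-1 (MYCTH_109566) in G2 was lost without G2 replicate 1 or NoCarbon2 replicate 2, and that in G2X2 without G2X2 replicate 2 or NoCarbon2 replicate 2. The cellobiohydrolase locus cbh-2 (MYCTH_66729) had 2336 and 1468 CPM in G2, against 128 and 66.8 CPM in NoCarbon2 (4.28 ± 0.50, adjusted p = 8.72e-05). In XA it had 1375 and 1243 CPM, against 106 and 59.3 CPM in Xylan (3.98 ± 0.50, adjusted p = 0.000199). In neither comparison did the groups overlap.

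In X2 against NoCarbon2 2 of the 5 cellulase loci were called higher and 0 lower, beside 19.1% of all genes called higher. In GX against NoCarbon2 2 were called higher and 2 lower, beside 10.9% and 13.1% of all genes. The endoglucanase loci eg-1 (MYCTH_111372) and eg-2 (MYCTH_86753) were called higher in X2 against NoCarbon2 (2.80 ± 0.57 and 1.76 ± 0.32, adjusted p = 0.00262 and 0.00118) and in GX against NoCarbon2 (2.58 ± 0.56 and 1.70 ± 0.32, adjusted p = 0.00608 and 0.00234). The remaining 3 loci were not called in X2. Of them, cbh-1 and eg-45 (MYCTH_76901) were called lower in GX (-2.59 ± 0.59 and -1.38 ± 0.38, adjusted p = 0.00798 and 0.0204). The first of these calls was lost without GX replicate 1 or NoCarbon2 replicate 1, and the second without any 1 of the 4 libraries compared. Over cellulases and LPMOs together, 10 of 11 loci were called higher in G2 against NoCarbon2 and 8 of 11 in XA against Xylan, beside 12.3% and 14.8% of all genes. The count for G2 was 7 without G2 replicate 1 or NoCarbon2 replicate 2, and that for XA was 8 whichever library was left out.

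The 3 loci for disaccharide uptake and hydrolysis had smaller log2 fold changes than cdh in both G2 against NoCarbon2 and XA against Xylan. Of them gh1-1 (MYCTH_115968), an intracellular beta-glucosidase that splits cellobiose to glucose, was called higher in G2 against NoCarbon2 (2.75 ± 0.32, adjusted p = 6.36e-05) and in XA against Xylan (2.28 ± 0.31, adjusted p = 0.000288). In X2 against NoCarbon2 it had a log2 fold change of 0.03 (adjusted p = 0.941). Of the 3 loci, 2 were called higher in G2 and 3 in XA, beside 12.3% and 14.8% of all genes. The call of the transporter cdt-1 (MYCTH_43941) in XA (2.04 ± 0.57, adjusted p = 0.017) was lost without any 1 of the 4 libraries compared. The transporter cdt-2 (MYCTH_114107), known in Neurospora crassa to carry cellodextrins, had 4.51 ± 0.45 in X2 against NoCarbon2 (adjusted p = 1.94e-05), a comparison in which cdh was not called. In G2 against NoCarbon2 cdt-2 had 1.30 ± 0.40 (adjusted p = 0.029), a call lost without G2 replicate 1, G2 replicate 2 or NoCarbon2 replicate 2.

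Of the regulators, clr-2 and xyr-1 were most like cdh, with correlations of log2 CPM over the 14 libraries of 0.91 and 0.89. CLR-2 is known in Neurospora crassa as a transcription factor that activates cellulase genes. Its locus (MYCTH_38704) had 100 and 80.4 CPM in G2, against 9.34 and 10.5 CPM in NoCarbon2 (3.18 ± 0.53, adjusted p = 0.000998). In XA it had 186 and 140 CPM, against 19.9 and 6.45 CPM in Xylan (3.63 ± 0.54, adjusted p = 0.000575). In X2, with 4.52 and 15.7 CPM, it did not differ detectably from NoCarbon2 (0.01 ± 0.52, adjusted p = 0.989), and its X2 libraries were ordered as those of cdh were.

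xyr-1 (MYCTH_2310145), which encodes a relative of the xylanase regulators, was called higher in G2 against NoCarbon2 (1.69 ± 0.28, adjusted p = 0.000897) and in XA against Xylan (1.99 ± 0.29, adjusted p = 0.000401). It was also called higher in G2X2 against NoCarbon2 (0.87 ± 0.28, adjusted p = 0.027). There 2 of the 4 regulator loci were called higher, or as few as 1 under the alternatives, beside 19.4% of all genes. Of the 4 regulator loci, 2 were called higher in G2 and 3 in XA, against 12.3% and 14.8% of all genes. The XA call of clr-1 (MYCTH_2298863, 1.09 ± 0.28, adjusted p = 0.0123) was lost without XA replicate 1, XA replicate 2 or Xylan replicate 2. In the plates clr-1 was called lower in G2X2 against NoCarbon2 (-1.34 ± 0.28, adjusted p = 0.00293), where cdh rose 20.5-fold. In G2 against NoCarbon2 clr-1 had -0.79 ± 0.28 (adjusted p = 0.0555). It was also called lower in GX (-1.60 ± 0.29, adjusted p = 0.00161) and X2 (-0.93 ± 0.28, adjusted p = 0.02) against NoCarbon2, where cdh was not called. The X2 call was lost on leaving out at least 1 library. Of all genes, 13.1% were called lower in GX, and 38.6% in either direction in X2. cre-1 (MYCTH_2310085), known in other fungi for carbon catabolite repression, was not called in G2 against NoCarbon2 (0.06, adjusted p = 0.879). Nor was it called in G2X2 against NoCarbon2 (-0.40, adjusted p = 0.212) or in XA against Xylan (-0.58, adjusted p = 0.0806).

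Xylanases cut xylan into shorter chains. All 4 of their loci were called higher in X2 against NoCarbon2 (median 6.77, against 19.1% of all genes), where cdh was not called. In G2X2 against NoCarbon2 all 4 were called higher too (median 4.64, against 19.4% of all genes), where cdh rose 20.5-fold. In G2 against NoCarbon2 0 of the 4 were called higher and 1 was called lower (MYCTH_89603, a call lost without NoCarbon2 replicate 1 or either G2 library), beside 12.3% and 14.2% of all genes, where cdh rose 16.2-fold. In XA against Xylan 2 of the 4 were called higher, beside 14.8% of all genes, and 1 or both of these calls were lost whichever library was left out. Their correlation with cdh over the 14 libraries, as log2 CPM, lay between 0.06 and 0.34.

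**Figure D3:**
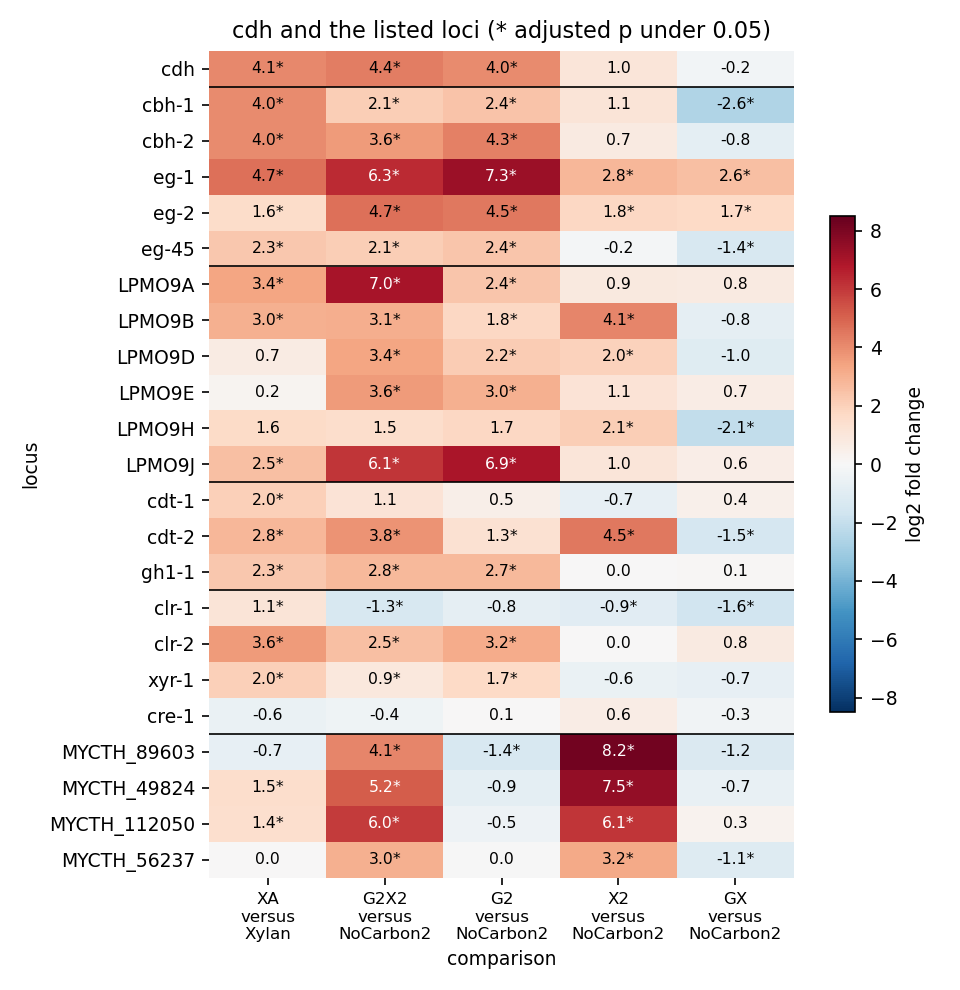
Log2 fold changes of cdh and the 22 listed loci (rows, grouped by list) in 5 comparisons (columns): XA against Xylan, and G2X2, G2, X2 and GX each against NoCarbon2. The rows of cdh, clr-2 and cbh-2 carry their large positive values in XA, G2X2 and G2, while the 4 xylanase loci carry theirs in X2 and G2X2.

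The 2 libraries of a group were not equally close for cdh. The higher library exceeded the lower by 3.89 times in X2 and 2.31 times in G2, and by 1.17 to 1.60 times in the other 5 groups. As replicate 2 minus replicate 1 of log2 CPM, cdh had 1.95 in X2 and -1.21 in G2. Of all genes, 2% in X2 and 1.39% in G2 differed between the libraries by at least as much.

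In 5 of the 7 groups at least 10 of the 11 cellulase and LPMO loci differed between libraries with the same sign as cdh. In G2 all 11 were lower in replicate 2, with a median difference of -0.85, and in X2 10 of 11 were higher in replicate 2, with a median of 1.35. Of the other 11 listed loci, 7 were lower in G2 replicate 2 (median -0.28) and 9 were higher in X2 replicate 2 (median 1.13), among them all 4 xylanases. Over all genes, 51.6% in G2 and 48.3% in X2 had the sign of cdh. In XA 11 of 11 shared its sign, in G2X2 and NoCarbon2 10 of 11, in Xylan 6 of 11 and in GX 3 of 11. Of all genes, 50.3% in XA, 46.4% in G2X2, 49.6% in NoCarbon2, 48% in Xylan and 51.1% in GX had that sign. What differed between the libraries of a group was not tested.

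After each group's mean was taken off, 9 of the 11 loci correlated with cdh above 0.5 over the 14 libraries, where 12.2% of 8566 genes did. The 11 values ran between 0.14 and 0.92 with a median of 0.85. Of the other 11 listed loci, xylanases included, 8 were above 0.5, with a median of 0.63 and values between 0.10 and 0.83. For the 11 cellulase and LPMO loci, the median without the X2 and G2 groups was 0.44 over the other 5 groups. Their median of 0.85 therefore rests in large part on the X2 and G2 libraries. Within a group the 2 deviations mirror each other, and the points share library and depth.

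**Figure D4:**
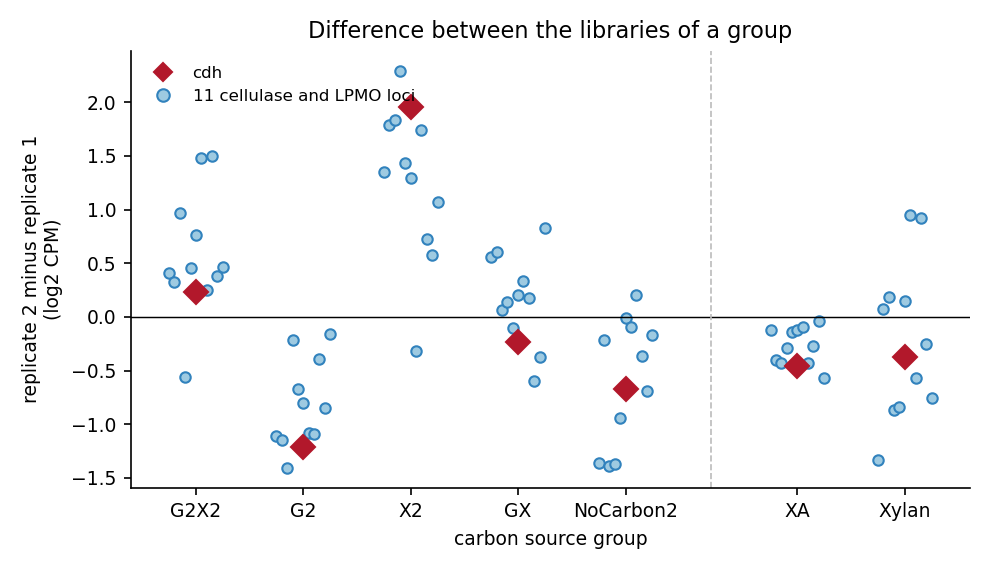
Replicate 2 minus replicate 1 of log2 CPM in each of the 7 groups, for cdh (large points) and the 11 cellulase and LPMO loci (small points). In G2 all 11 loci lie below 0 with cdh at -1.21, and in X2 10 of the 11 lie above 0 with cdh at 1.95.

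Over the 14 libraries, the gene whose log2 CPM was most like that of cdh was cbh-2, with a Pearson correlation of 0.98. Of 8566 genes ranked, 3 exceeded 0.95, 12 exceeded 0.9 and 45 exceeded 0.8, and the median was 0.01. These correlations are over 7 media of 2 libraries, so the points of a medium are not independent. The genes after cbh-2 were MYCTH_33936 (0.96), MYCTH_110651 (0.95), gh1-1 (0.95), eg-45 (0.94), eg-1 (0.94), MYCTH_81013 (0.94), MYCTH_2303045 (0.92), MYCTH_81925 (0.92) and MYCTH_62925 (0.91). The 10th and 11th genes both rounded to 0.91, and the 11th was clr-2.

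Of these 10 genes all were called higher in G2 against NoCarbon2, in G2X2 against NoCarbon2 and in XA against Xylan. The shares of all genes were 12.3%, 19.4% and 14.8%. The 10 were chosen by likeness to cdh over these same libraries, so that choice largely set these counts. The call of MYCTH_81013 in G2 was lost without G2 replicate 1. Their group means were not alike in every medium, although these gaps were not compared with that of cdh by a test. MYCTH_2303045 averaged 165 CPM in G2X2 and 40.1 CPM in G2, whereas MYCTH_62925 averaged 165 CPM in G2X2 and 170 CPM in G2. MYCTH_110651 averaged 504 CPM in XA, 210 CPM in G2X2 and 113 CPM in G2. The means of cdh were 294 CPM in XA, 325 CPM in G2X2 and 257 CPM in G2.

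Of the LPMO loci, LPMO9J had rank 14 of 8566, and the other 5 lay between ranks 29 and 218. Of the cellulases, cbh-2, eg-45 and eg-1 were among the first 10, and eg-2 and cbh-1 had ranks 15 and 19, so that LPMO9J lay between the first 3 and the last 2. Ranked by Spearman's rho instead, 4 of the 10 genes were again among the first 10, and over the plate libraries alone 7 were. The lowest correlation was that of MYCTH_2307269 (-0.95), which averaged 3.58 CPM in XA and 31.3 CPM in Xylan, and 1.58 CPM in G2 and 34.3 CPM in NoCarbon2. Its means were lower in XA, G2X2 and G2 than in each of the other 4 media. The next lowest were MYCTH_2299842 and MYCTH_2300626, both at -0.92.

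**Figure D5:**
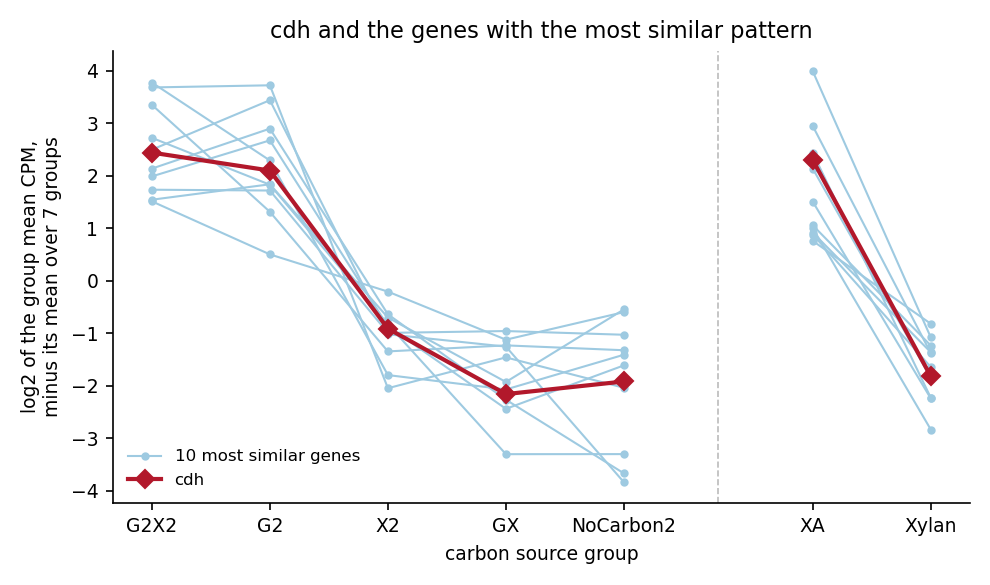
Log2 of the group mean CPM, less its mean over the 7 groups, for cdh (diamonds) and the 10 genes most like it (small points), with the 5 plate groups left of the 2 flask groups. All 11 lines lie above 0 in G2X2, G2 and XA and below 0 in X2, GX, NoCarbon2 and Xylan.

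The genes beside cdh in the RefSeq gene table were weakly correlated with it. MYCTH_2093073, MYCTH_101399 and MYCTH_2305285 correlated with cdh at -0.21, 0.05 and -0.11 over the 14 libraries, and the adjacent loci did not overlap cdh in that table. In G2 against NoCarbon2 their log2 fold changes were -0.01, -0.17 and -0.39 (adjusted p = 0.983, 0.677 and 0.393), against 4.02 for cdh. In XA against Xylan MYCTH_2093073 was called lower (-1.76 ± 0.28, adjusted p = 0.000728), as were 17.1% of all genes. MYCTH_101399 had 1.00 ± 0.26 (adjusted p = 0.0125), a call lost without XA replicate 1, XA replicate 2 or Xylan replicate 1. A tRNA locus between MYCTH_2093073 and cdh was not analysed here.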

How the data were processed

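Wild-type mycelium was profiled by RNA-seq in 14 libraries of 7 media. The authors deposited 1 table of raw counts per gene. TopHat2 2.0.8b and HTSeq 0.13.5 are named in the submitters' processing notes. No label or header names the genome build, the annotation or the use of strand, so no coordinates are printed. The libraries labelled XA stand in the table under AX, the name the growth protocol uses for that medium. Genes were filtered with filterByExpr at a minimum count of 10, leaving 8567 of 9110, and scaled by TMM. All libraries entered 1 edgeR 4.0.16 quasi-likelihood model (R 4.3.3) of 7 group means, with 13 contrasts and Benjamini-Hochberg adjustment over all genes tested. Log2 CPM used a prior count of 2. The model was checked on simulated counts. The members, lists and comparisons were chosen with earlier results of these data known. Genes named are cdh, the 22 listed loci, the 10 genes most and the 3 least correlated with cdh, and the 2 annotated loci on each side of it. The closing section also names loci with a symbol in the RefSeq table, chosen after values were seen. Of the gene IDs, 9087 match the RefSeq table of assembly ASM22609v1. A further 3 lists based on protein sequence were not built, since no protein sequences were used. Alternatives were other scalings, no filter, DESeq2 1.42.0, fewer groups in the fit, a replicate block and leaving out each library. Leaving out libraries for the list counts, and the correlation of deviations from group means, were added after seeing the data.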

Additional observations from a re-analysis of the deposited data

Results flagged for a closer look

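For cdh neither difference between effects was called. The following differences between effects were called for other named loci, and named loci without a call are left out. Of all genes, 18.1% were called for the difference in the effect of xylobiose and 33.9% for that between flasks and plates. A call by itself therefore does not set a locus apart. The effect of xylobiose in the presence of cellobiose minus that in its absence was -3.74 for eg-1 and 3.74 for LPMO9A on the log2 scale (adjusted p = 0.0056 and 0.00372), and both calls held whichever library was left out. The same difference was -1.61 for eg-2, -2.76 for LPMO9B, -1.98 for cdt-2, -1.09 for cre-1 and -2.69 for the xylanase locus MYCTH_89603, and each of these calls was lost on leaving out at least 1 library. LPMO9A had 4.60 for G2X2 against G2 and 0.86 for X2 against NoCarbon2, beside 0.34 and 1.00 for cdh. For eg-1 they were -0.94, which was not called (adjusted p = 0.183), and 2.80. Its level in NoCarbon2 was low, at 1.19 and 1.01 CPM (29 and 26 counts).

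The effect of Avicel in flasks (XA against Xylan) minus that of cellobiose in plates (G2 against NoCarbon2) was -2.96 for eg-2, -2.81 for LPMO9E, -4.38 for LPMO9J and 1.88 for clr-1 (adjusted p = 0.00053, 0.00829, 0.00224 and 0.0038), and these calls held whichever library was left out. It was -2.61 for eg-1, 2.36 for the xylanase locus MYCTH_49824, 1.85 for MYCTH_112050 and -1.46 for the catalase locus cat1, and each of these calls was lost on leaving out at least 1 library. Medium and vessel cannot be told apart in these values.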

How the results depend on the processing

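Of 150 values of cdh under alternatives, 137 kept their direction and their side of the threshold. The 7 called comparisons were called in the same direction under all of them, with log2 fold changes on leaving out each library of 3.87 to 4.34 (XA against Xylan), 3.29 to 4.50 (G2 against NoCarbon2), 4.06 to 4.74 (G2X2 against NoCarbon2), -4.32 to -2.29 (X2 against G2), 2.69 to 4.65 (G2X2 against X2), 4.43 to 4.72 (G2X2 against GX) and 3.53 to 4.74 (G2 against GX). For the comparisons not called the ranges were -0.29 to 1.61 (X2 against NoCarbon2), -0.54 to 0.14 (GX against NoCarbon2), -0.14 to 1.07 (G2X2 against G2), -0.063 to 1.87 (X2 against GX), -1.29 to 0.63 (interaction) and -0.38 to 0.83 (flask minus plate). With 1 library left in a group, it is assumed to vary like the others. DESeq2 called X2 against GX (1.24, adjusted p = 0.0295). Without the scaling factors the level in GX was 16.0 CPM. Of 1800 list counts under alternatives, 1656 lay within 1.5 times the count reported and 144 did not. Counts of 0 in both were taken as within, and the cellulase and LPMO loci entered again as a joint list. The first number therefore overstates how stable the counts were. In a fit of the contrasted groups alone, the number of genes called was 1440 against 2274 (G2 against NoCarbon2), 1509 against 3308 (X2 against NoCarbon2), 1979 against 3276 (G2X2 against NoCarbon2), 1044 against 2060 (GX against NoCarbon2), 1217 against 2573 (G2X2 against X2), 804 against 1549 (interaction) and 2227 against 899 (G2 against GX). The smallest number on leaving out 1 library was 220 (G2 against GX without G2 replicate 2). Upper-quartile scaling moved the median of all genes to 0.11 in XA against Xylan, -0.10 in G2X2 against GX and -0.11 in X2 against GX. Deviations of same-numbered libraries correlated at -0.16 to 0.21 over 21 pairs of groups, where 2 exceeded 0.1 and 4 lay below -0.1. Such values cannot show whether same-numbered libraries shared a batch or a preculture. A replicate block changed no call of cdh (4.11 in XA against Xylan, 4.00 in G2 against NoCarbon2) and left 86.9% to 95.3% of the number of calls. The causes were not tested.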

Other observations

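Of the 6 loci that carry a symbol in the RefSeq gene table, cdh was called in XA against Xylan and in both cellobiose media against NoCarbon2, and the following values describe 3 of the others. The catalase locus cat1 (MYCTH_80916) averaged 46.9 ± 2.89 CPM in XA and 90.5 ± 18.7 CPM in Xylan (SD, n = 2 each), a log2 fold change of -0.95 ± 0.28 (adjusted p = 0.0226) that was not called without XA replicate 1, XA replicate 2 or Xylan replicate 1. In G2 it averaged 95.6 ± 2.31 CPM and in NoCarbon2 66.8 ± 8.70 CPM (0.52, adjusted p = 0.199). The glucoamylase locus gla1 (MYCTH_72393), whose enzyme releases glucose from starch, had -1.54 ± 0.45 in X2 against NoCarbon2 (adjusted p = 0.019) and -1.81 ± 0.46 in G2X2 against NoCarbon2 (adjusted p = 0.00856). The first of these calls was lost without X2 replicate 1 or NoCarbon2 replicate 1, and the second without G2X2 replicate 2. Of the 8567 genes tested, 1668 and 1610 were called lower in these comparisons. In GX and G2 against NoCarbon2 gla1 had -1.32 ± 0.45 and -1.18 ± 0.45, not called (adjusted p = 0.0516 and 0.0721). Its levels in X2 and G2X2 did not differ detectably from G2 (-0.36 and -0.63, adjusted p = 0.558 and 0.38). The laccase locus lcc1 (MYCTH_51627) did not pass the filter, with at most 8 counts in any library.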
